A study of Homo sapiens with 6 samples.

Results

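Neutrophil chemokines and inflammatory cytokines were followed in A549 cells, an established human lung adenocarcinoma line, after knockdown of the RNA helicase DDX17. The group was defined as 10 named genes, chosen by symbol: the CXC chemokines CXCL1, CXCL2, CXCL3, CXCL5 and CXCL8, the CC chemokines CCL20 and CCL2, and the cytokines IL6, IL1A and LIF. The choice was made with earlier results of these data known. The study had already reported CXCL5 and CCL20 as reduced in these libraries, so counts of genes called in the group are not independent of the choice. All 10 were present among the 29476 genes of the count table, and 9 of them were among the 15615 genes that passed the expression filter. The exception was IL1A.

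The study sequenced 6 stranded libraries of polyadenylated RNA. Of these, 3 came from cells transfected with a nontargeting siRNA (siCtrl) and 3 from cells transfected with 1 siRNA duplex against DDX17 (siDDX17), both delivered with a Lipofectamine reagent to the same line in medium with serum, and no inflammatory stimulus is named for either group. The titles and the study's methods name siRNA, whereas 1 label field of the control samples speaks of a control plasmid. The study calls the 3 libraries of each group biological replicates, and how the cultures were kept apart is not stated. In bulk RNA, fewer cells expressing a gene and less RNA per cell cannot be told apart.

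CXC chemokines with a glutamate-leucine-arginine motif before their first cysteines act on the receptor CXCR2, and CXCL8 also on CXCR1, to draw neutrophils out of the blood. CCL20 attracts lymphocytes and immature dendritic cells through CCR6, and CCL2 attracts monocytes through CCR2. Epithelial cells make these proteins on stimulation by IL1A or other danger signals, largely through nuclear factor kappa B (NF-kB) acting at short sites close to the transcription start, and their mRNAs are kept short-lived by AU-rich elements in the 3' untranslated region (3' UTR). LIF and IL6 belong to a cytokine family that signals through the shared receptor chain IL6ST.

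The labels were first checked on the targeted gene. DDX17 counted 5988, 5273 and 7706 reads in the siCtrl libraries and 1237, 1123 and 1172 reads in the siDDX17 libraries, a log2 fold change of -2.60 ± 0.0685 (SE) with an adjusted p of 5.89e-11 in the quasi-likelihood test of edgeR, adjusted by the Benjamini-Hochberg method over all 15615 tested genes. Each adjusted p given hereafter is from this fit, unless another setting is named. The libraries held 30658136 to 39182371 reads in all. The library siCtrl 1 stood apart from its group: the chi-square per gene of its counts against the other siCtrl libraries was 20.3 and 25.6, against 3.62 to 5.83 for the other pairs within a group. It also had 99 of the tested genes (0.634%) at least 2-fold above both other siCtrl libraries, and CXCL2, CXCL3 and IL6 were among these. The same count was 58 (0.371%) for siCtrl 2 and 37 (0.237%) for siCtrl 3. For siDDX17 1 to 3, each against its own group, it was 13, 30 and 38. Values that rest on siCtrl 1 are therefore given with and without it. Of the markers of a lung epithelial line, 10 of 12 passed the expression filter, whereas the surfactant genes SFTPB and SFTPC did not exceed 10 reads. The summed level of these markers, mostly keratins, AKR1B10 and NQO1, was 14930 to 16580 CPM (reads scaled to a common library size) in siCtrl and 12430 to 13210 CPM in siDDX17. Of the 10, 6 fell (60%) and 2 rose (20%) at an adjusted p under 0.05 and any size, beside 24.3% and 24.5% of all tested genes. KRT7 had a log2 fold change of -0.64, NAPSA of 0.90 and EPCAM, the only one called, of 1.35. The summed level of the leukocyte markers was 23.42 to 30.97 CPM in siCtrl and 31.24 to 31.65 CPM in siDDX17, mostly CD14, while PTPRC, LYZ and CSF3R did not exceed 10 reads in any library and CD3E and MS4A1 were not listed. The 3 endothelial markers summed to at most 0.413 CPM, and the fibroblast markers, of which COL1A2 was not listed, ranged from 5.06 to 7.60 CPM in siCtrl and from 6.25 to 6.67 CPM in siDDX17. Whether the epithelial or leukocyte markers' difference had a part in the results was not tested.

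The 5 CXC genes lie together on chromosome 4 within 358.7 kb (GRCh38, 73740519 to 74099196), CXCL8 and CXCL1 on the plus strand and CXCL5, CXCL3 and CXCL2 on the minus strand. CCL20 and IL1A are on chromosome 2, IL6 on chromosome 7, CCL2 on chromosome 17 and LIF on chromosome 22. Their promoters are shown first, since those of the CXC genes that fell and that of CXCL1, which did not pass the test, hold the same short sequence. RefSeq promoters (GRCh38.p14) were found for 8 of the 10 genes, all but CCL2 and LIF. The lines below give bases -140 to -51 relative to the RefSeq start, 5' to 3' on the gene's own strand. Capitals mark the run that matches GGAATTTCC with its flanking G and C where present, or, in CCL20 and IL6, the match to the kappa B consensus, the site bound by NF-kB.
CXCL1 (chr4:73869253-73869342, plus strand): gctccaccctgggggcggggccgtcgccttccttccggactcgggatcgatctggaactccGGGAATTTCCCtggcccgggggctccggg
CXCL3 (chr4:74038740-74038829, minus strand): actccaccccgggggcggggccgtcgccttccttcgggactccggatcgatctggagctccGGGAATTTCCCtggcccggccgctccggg
CXCL2 (chr4:74099246-74099335, minus strand): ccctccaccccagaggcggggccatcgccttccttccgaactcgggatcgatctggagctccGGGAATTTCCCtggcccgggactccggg
CXCL5 (chr4:73998728-73998817, minus strand): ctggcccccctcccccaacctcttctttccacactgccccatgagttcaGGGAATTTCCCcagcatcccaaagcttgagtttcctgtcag
CXCL8 (chr4:73740429-73740518, plus strand): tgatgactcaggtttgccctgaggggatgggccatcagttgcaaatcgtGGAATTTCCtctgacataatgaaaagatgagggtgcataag
CCL20 (chr2:227813702-227813791, plus strand): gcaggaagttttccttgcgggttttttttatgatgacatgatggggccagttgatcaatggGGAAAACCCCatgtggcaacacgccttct
IL6 (chr7:22727060-22727149, plus strand): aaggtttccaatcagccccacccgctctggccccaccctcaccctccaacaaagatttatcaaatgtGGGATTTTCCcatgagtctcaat

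CXCL1, CXCL2, CXCL3 and CXCL5 carried the same 11 letters in this window, and CXCL8 shared the 9 letters GGAATTTCC within it. The first base of GGAATTTCC stood at -78 in CXCL1 and CXCL3, at -77 in CXCL2, at -90 in CXCL5 and at -91 in CXCL8. In CCL20 the kappa B match stood on the opposite strand from -79 to -70, and in IL6 on the gene's strand from -73 to -64. CXCL8 also held TGANTCA, the activator protein 1 motif, at -137, TTGCAAAT at -102 and TATAAA at -31, and CCL20 held TTGCAAAT at -230 and TATAAA at -29. Neither window of IL1A matched the kappa B consensus, but TGANTCA and TATAAA were found there. GGAATTTCC, which was chosen after these promoters had been seen, was present in 162 of 35116 RefSeq promoter windows of 300 bases (0.461%) on either strand, and the kappa B consensus, of which the GGAATTTCC of CXCL1, CXCL2, CXCL3 and CXCL5 is a part, was present in 5.91%. TGANTCA was present in 7.71%, TTGCAAAT in 0.883% and TATAAA in 11.5% of the windows. Of the 58 tested genes with GGAATTTCC in their promoter, 6 were called lower, but 5 of the 58 were the CXC genes themselves. Of the 53 other genes, 2 were called lower (3.77%), where 2.35% of all tested genes with a promoter window were. For the kappa B consensus, 18 of 922 tested genes outside the list under study were called lower (1.95%). The same share was 2.56% for TGANTCA, 2.82% for TTGCAAAT and 1.88% for TATAAA. Whether any of these shares differed from that of all genes was not tested. Over the stretch shown, bases -140 to -51, CXCL1 was 92.2% identical to CXCL3 and 89.0% identical to CXCL2. In the same stretch CXCL5 and CXCL8 were 44.6% to 51.9% identical to the other CXC genes.

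In FPKM, which divides the reads of a gene by its length and by the size of the library, the scale on which levels of different genes may be compared, CXCL5 was the most abundant member in siCtrl at 22.7 ± 4.93 FPKM (SD, n = 3). It was followed by CCL2 at 14.5 ± 1.50 and LIF at 12.9 ± 0.978, whose libraries overlapped, and then by CXCL1 at 7.58 ± 1.63. CXCL2, CXCL8, CXCL3 and CCL20 followed with means from 4.37 down to 2.56 FPKM, and each of these overlapped its neighbour in the order. IL6 and IL1A were close to the limit of detection at 0.113 and 0.0467 FPKM. In siDDX17, LIF came first at 10.7 ± 0.389 FPKM (SD, n = 3) and CCL2 next at 9.23 ± 0.371, while CXCL5 at 7.27 ± 0.416 overlapped CXCL1 at 7.35 ± 0.404. CXCL5 thus moved from the first to the fourth place, and LIF from the third to the first.

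**Figure D1:**
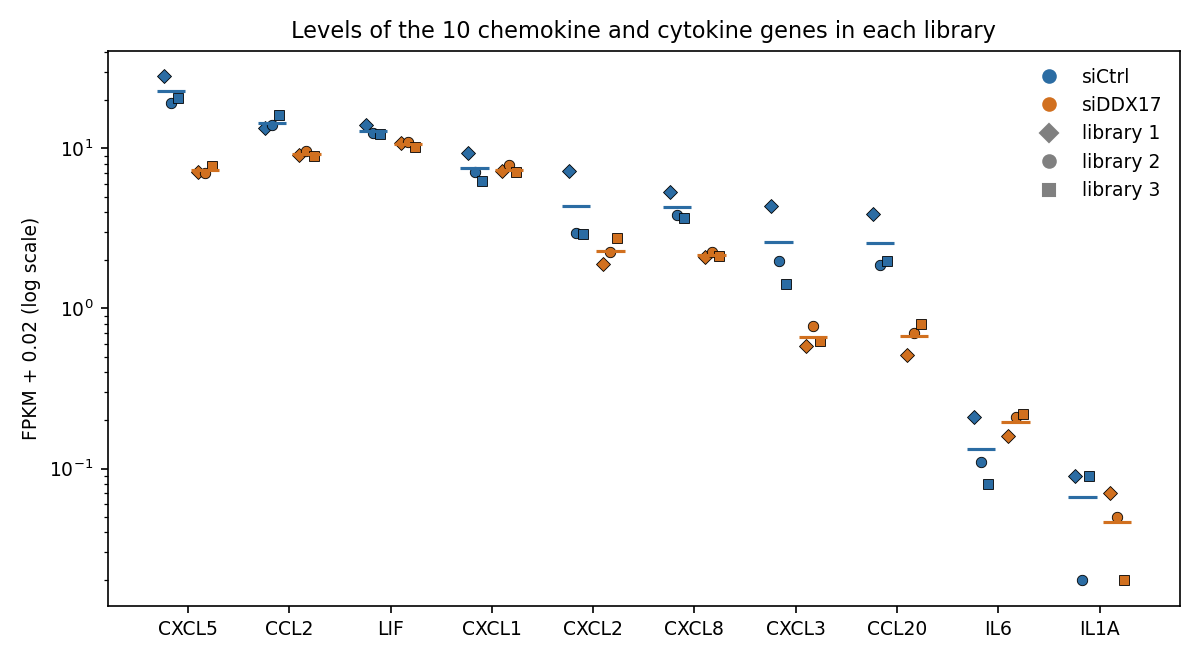
FPKM of each of the 10 genes (log axis; 0.02 was added so that libraries at 0 can be drawn) in the 3 siCtrl libraries (blue) and the 3 siDDX17 libraries (orange), with the marker shape giving the library number and the bar the group mean. For 7 genes every siDDX17 library lay below every siCtrl library, and for CXCL1, IL6 and IL1A the groups overlapped.

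A gene was called where its adjusted p was under 0.05 and its log2 fold change over 1 in size. After DDX17 knockdown, 5 of the 9 tested genes were called lower (CXCL2, CXCL3, CXCL5, CXCL8 and CCL20) and 0 were called higher by edgeR, where 2.92% of all tested genes were called lower and 4.65% higher. At an adjusted p under 0.05 with no limit on size, CCL2 and LIF also fell, which made 7 of 9, and 0 rose, where 24.3% of all tested genes fell and 24.5% rose. At an unadjusted p under 0.05, 0 of the 9 were higher, and DESeq2 called 0 higher. In the same 7 genes every siDDX17 library lay below every siCtrl library, where this held for 27.7% of all tested genes. The median log2 fold change over the 9 genes was -1.06, and that over all tested genes was 0.01. Without siCtrl 1, 3 of the 9 were called lower (CXCL3, CXCL5 and CCL20), and the median was -0.86.

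**Figure D2:**
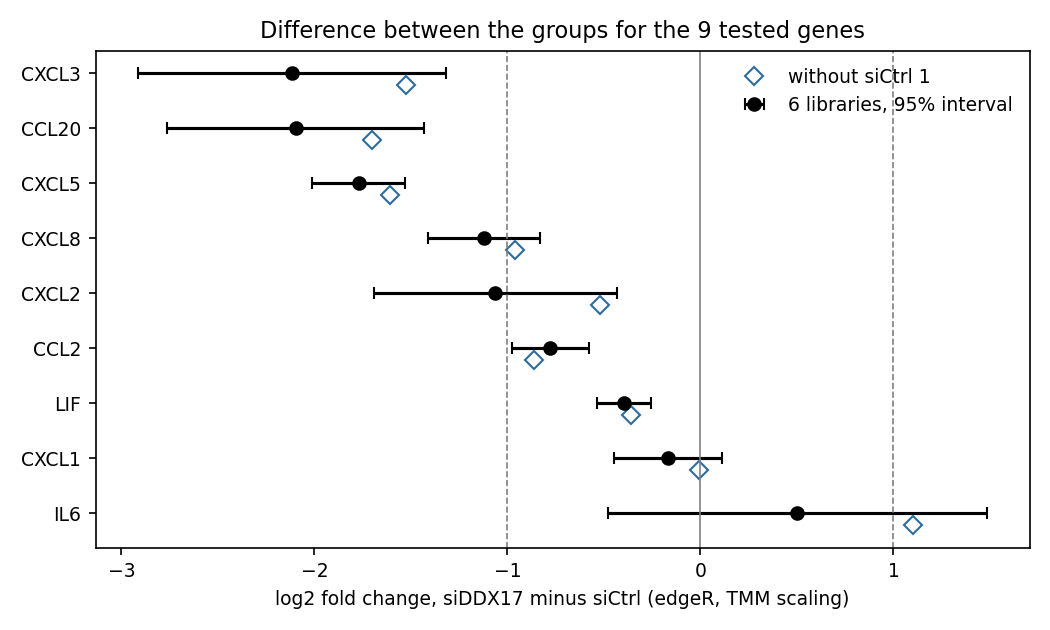
Log2 fold change, siDDX17 minus siCtrl, of the 9 tested genes from edgeR with its 95% interval (black, 3 libraries against 3) and the estimate without the library siCtrl 1 (open diamonds). Dashed lines mark a log2 fold change of 1 in either direction; CXCL2 and CXCL8 lay beyond it with siCtrl 1 and within it without that library.

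Among the CXC chemokines, CXCL5, an epithelial neutrophil attractant, showed the decrease with the smallest SE among the 5 genes called lower. It counted 2603, 1552 and 2149 reads in siCtrl 1 to 3 and 693, 651 and 747 reads in siDDX17 1 to 3, which corresponded to 62.8 ± 12.3 CPM (SD, n = 3) against 18.4 ± 0.851 CPM. All siDDX17 libraries were close to each other and far below the lowest siCtrl library. The log2 fold change was -1.77 ± 0.112 (SE; 95% interval -2.01 to -1.53), a level 3.41-fold lower, with an adjusted p of 4.88e-08. The call held in every alternative tried, with log2 fold changes from -1.87 to -1.5.

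CXCL3, a close relative of CXCL1 and CXCL2 and a ligand of the same receptor, had far fewer reads. It counted 169, 67 and 62 reads in siCtrl and 23, 30 and 25 reads in siDDX17. The library siCtrl 1 was 2.50 times the mean of the other siCtrl libraries in CPM, but even the lowest siCtrl library had more than every siDDX17 library. The log2 fold change was -2.12 ± 0.370 (SE), with an adjusted p of 3.76e-04. Without siCtrl 1 it was -1.53, and the gene was still called.

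CXCL8, the best known human neutrophil attractant, counted 384, 244 and 301 reads in siCtrl and 160, 164 and 161 reads in siDDX17. The groups did not overlap, and the siDDX17 libraries were nearly level at 4.28 ± 0.193 CPM (SD, n = 3) against 9.30 ± 1.78 CPM in siCtrl. The log2 fold change was -1.12 ± 0.135 (SE), with an adjusted p of 1.65e-05. Without siCtrl 1 it was -0.96, with an adjusted p of 1.05e-08, so that the difference remained past the p limit and fell short of the fold limit.

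CXCL2 gave the least stable call. It counted 319, 115 and 145 reads in siCtrl and 88, 100 and 126 reads in siDDX17, or 9.42, 4.02 and 3.87 CPM against 2.28, 2.74 and 3.27 CPM. The siCtrl 1 library alone stood far above the rest, and the nearest libraries of the 2 groups, siCtrl 3 and siDDX17 3, were close together. The log2 fold change was -1.06 ± 0.292 (SE; 95% interval -1.69 to -0.43), with an adjusted p of 8.37e-03. It was -0.52 without siCtrl 1, with an adjusted p of 5.79e-03, and -0.94 without siDDX17 1, with an adjusted p of 0.0408, and the gene was not called in either case.

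CXCL1, which acts on the same receptor as CXCL2 and CXCL3, did not pass the test. It counted 373, 248 and 281 reads in siCtrl and 302, 316 and 295 reads in siDDX17, and the groups overlapped on every scale. The log2 fold change was -0.17 (95% interval -0.45 to 0.11) with an adjusted p of 0.300, so that the interval did not reach a 2-fold decrease. It was -0.01 without siCtrl 1.

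The reads of the 5 genes called lower were also divided by those of CXCL1 in the same library, which does not depend on how the libraries are normalised. Both CXCL1 and the 5 genes were chosen for this after their values had been seen, so the ratios are a description and were not tested. For each read of CXCL1 the siCtrl libraries held 6.98, 6.26 and 7.65 reads of CXCL5 and the siDDX17 libraries 2.29, 2.06 and 2.53. The ratio for CXCL8 was 1.03, 0.984 and 1.07 in siCtrl and 0.530, 0.519 and 0.546 in siDDX17. On this scale siCtrl 1 no longer stood apart for CXCL5 and CXCL8, whose mean ratios fell 3.03-fold and 1.93-fold with siCtrl 1 and equally 3.03-fold and 1.93-fold without it. CXCL3 fell from 0.453, 0.270 and 0.221 reads per read of CXCL1 to 0.0762, 0.0949 and 0.0847, a 3.69-fold decrease of the mean, or 2.88-fold without siCtrl 1. CCL20 fell 3.70-fold, or 3.23-fold without siCtrl 1. CXCL2 showed the smallest difference, from 0.855, 0.464 and 0.516 to 0.291, 0.316 and 0.427, which is 1.77-fold, or 1.42-fold without siCtrl 1. In all 5 ratios the siDDX17 libraries lay below the siCtrl libraries, which the choice of genes made likely.

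**Figure D3:**
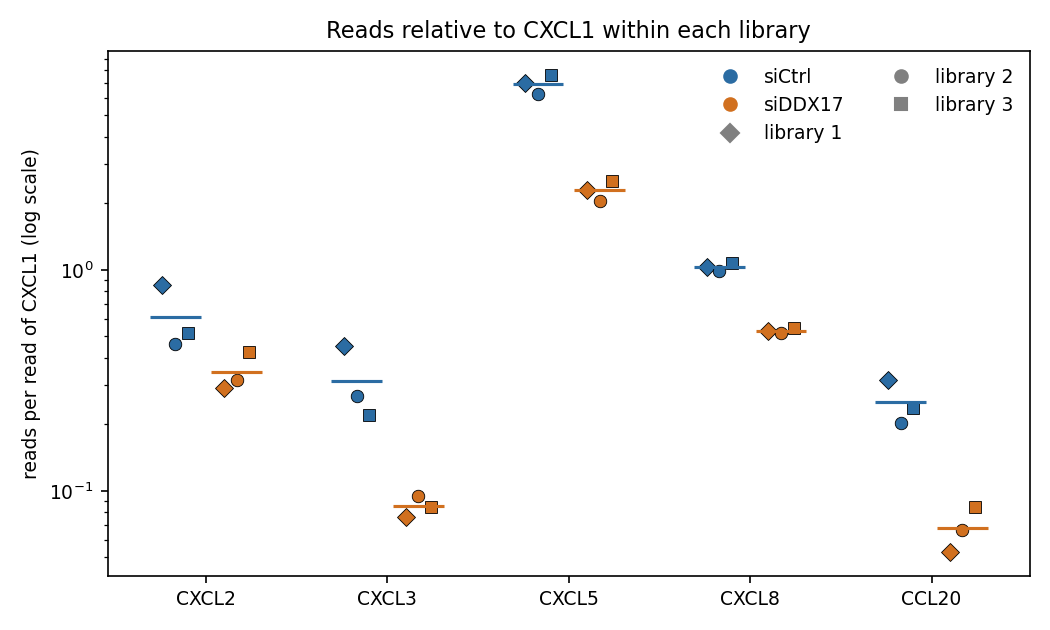
Reads of CXCL2, CXCL3, CXCL5, CXCL8 and CCL20 per read of CXCL1 within each library (log axis), for siCtrl (blue) and siDDX17 (orange), with the marker shape giving the library number and the bar the group mean. All 3 siDDX17 libraries lay below all 3 siCtrl libraries for each gene, and siCtrl 1 was the highest library for CXCL2, CXCL3 and CCL20.

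The transcripts of CXCL1, CXCL2 and CXCL3 are alike, and reads from a stretch that they share cannot be assigned to 1 of them. Of the 50-base windows of the canonical transcripts, 5.33% in CXCL1, 10.1% in CXCL2 and 5.26% in CXCL3 were also found in another gene of this trio, and 1.17% of those of CXCL5 were found in GLYR1. The other 6 genes of the list had none. The authors kept uniquely mapped reads only.

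CCL20, the ligand of CCR6, counted 118, 50 and 67 reads in siCtrl and 16, 21 and 25 reads in siDDX17. Every siDDX17 library had at most 25 reads, below the lowest siCtrl library. The log2 fold change was -2.10 ± 0.309 (SE), with an adjusted p of 9.35e-05, and it was -1.70 without siCtrl 1, still a call.

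CCL2, the monocyte attractant, was the 1 tested gene of the list for which siCtrl 1 was not the highest siCtrl library. It counted 541, 500 and 741 reads in siCtrl and 391, 400 and 384 reads in siDDX17, or 16.0, 17.5 and 19.8 CPM against 10.1, 11.0 and 9.97 CPM, with no overlap. It fell by 0.78 on the log2 scale (SE 0.0932, adjusted p 1.55e-05), a level 1.71-fold lower, and so stayed within the fold limit. Without siCtrl 1 the log2 fold change was -0.86.

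LIF, a cytokine of the IL6 family, counted 2009, 1575 and 1978 reads in siCtrl and 1652, 1607 and 1546 reads in siDDX17. In CPM the groups did not overlap, at 59.3, 55.1 and 52.8 against 42.9, 44.1 and 40.1 CPM. The decrease was small, with a log2 fold change of -0.40 ± 0.0643 (SE) and an adjusted p of 2.09e-04, and LIF was then the most abundant member in FPKM.

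IL6, the acute phase cytokine, and IL1A, the alarmin that acts through IL1R1, were near 0 in these cells. IL6 counted 12, 5 and 4 reads in siCtrl and 9, 12 and 13 reads in siDDX17, so the groups overlapped. Its log2 fold change of 0.50 had a 95% interval from -0.48 to 1.49 and an adjusted p of 0.386, and it was 1.10 without siCtrl 1, with an adjusted p of 0.109. The interval with all libraries includes a 2-fold increase. IL1A counted 5, 0 and 6 reads in siCtrl and 4, 2 and 0 in siDDX17 and was not tested. Genes on the opposite strand overlap IL6 (IL6-AS1 and STEAP1B), LIF (LIF-AS1 and LIF-AS2) and CXCL5 (an unnamed gene), and whether the counting used strand is not given in the sources used here.

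In the 3' UTRs of the canonical transcripts, all 10 genes held the AU-rich pentamer ATTTA, from 1 copy in CCL2 to 11 in CXCL5, as did 72.6% of the 12987 tested genes whose 3' UTR had 30 bases or more. The longer element TTATTTATT was present in 5 of the 10, with 3 copies in CXCL1, 5 in CXCL2, 1 in CXCL3, 1 in CXCL8 and 2 in LIF, and in 9.23% of the 12987 genes. It was absent from CXCL5 and CCL20. The first copy of each is shown in capitals with 9 bases on either side, since the genes that hold it include CXCL1, which did not pass the test, as well as 3 that were called lower.
CXCL1: gtcttctatTTATTTATTtattcatta
CXCL2: gtcttctatTTATTTATTtatttattt
CXCL3: tgtcagttgTTATTTATTcaaattatc
CXCL8: tgtaaagtaTTATTTATTtgaatctac
LIF: tccgggcccTTATTTATTatttaaaca
These copies begin at base 148 of the 3' UTR in CXCL1 and CXCL2, 471 in CXCL3, 210 in CXCL8 and 2675 in LIF. Of all tested genes with this element, the 5 shown here among them, 3.59% were called lower, against 2.55% of the genes with a 3' UTR. Genes with the element also had longer 3' UTRs, with a median of 3108 bases against 1312. Whether length had a part in the difference was not tested. A match to the seed of the DDX17 siRNA's antisense strand, TATTGCT, was found in 14.5% of these 3' UTRs. TCGGAGA, which pairs with the control siRNA's sense strand, was found in 2.13%. Neither was found in any of the 10 genes. The control's antisense strand was not scanned, so whether it could act on these genes was not tested. The median log2 fold change was -0.03 in genes with TATTGCT and 0.23 in genes with TCGGAGA, beside -0.005 in all genes with a 3' UTR.

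The neighbours of the CXC genes on chromosome 4 were counted next. Of the 14 genes of the cluster and its flank, 10 were tested, and 5 were called lower, where 2.92% of all tested genes were. Of these 5, 4 are the CXC genes already counted above. EREG, an epidermal growth factor receptor ligand, was the only gene called among the neighbours outside the list of 10. Without siCtrl 1, 2 were called lower, CXCL3 and CXCL5. EREG counted 3367, 1390 and 1396 reads in siCtrl and 1112, 1071 and 1257 in siDDX17, and so shared the high value of siCtrl 1. Its log2 fold change was -1.03 ± 0.253 (SE), with an adjusted p of 4.30e-03, and it was -0.51 without siCtrl 1 and -0.99 without siDDX17 1, when it was not called. The call was lost in 7 of 17 alternatives. CXCL1, PF4, MTHFD2L, AREG and BTC, which lie between or beside the called genes, did not pass the test, with log2 fold changes from -0.41 (AREG) to 0.03 (MTHFD2L). CXCL6 and PPBP had at most 9 reads, and PF4V1 and PPBPP2 were not listed in the count table.

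Genes of the same pathways were then counted in full, as 9 lists with 147 genes, of which 133 were in the count table and 94 were tested. Of these 94, 4 were called lower (4.26%) and 2 higher (2.13%), beside 2.92% and 4.65% of all tested genes. At any size 37 fell (39.4%) and 19 rose (20.2%), beside 24.3% and 24.5% of all tested genes, the shares against which the counts at any size in each list are to be read. Few other chemokines were expressed: 2 of 11 other CXC chemokines were tested, and CXCL16, a membrane-bound chemokine, fell with a log2 fold change of -0.74 (adjusted p 2.00e-06). Of the other CC and CX3C chemokines, 4 of 17 were tested and 2 fell, CCL26 and CCL5. CCL5, a T cell attractant, was called at -1.0 (adjusted p 0.0153) from 13 to 30 reads per library, and lost the call in 10 of 17 alternatives, among them DESeq2 (adjusted p 0.0501), without siCtrl 1 (-0.79), without siDDX17 1 (-0.99) and without siDDX17 3 (-0.99). CCL26 (-0.79, adjusted p 0.0454) missed the p limit with upper quartile scaling (adjusted p 0.0536) and library size only (adjusted p 0.0834). Of the other interleukins and cytokines, 3 of the 11 tested rose (27.3%), a share near the 24.5% of all tested genes. These were IL15, at a log2 fold change of 0.75, IL32, at 0.97, and IL34, at 0.99, with adjusted p of 8.95e-05, 9.80e-05 and 3.36e-03. IL34 was called higher without siCtrl 1 (1.09) or without siDDX17 1 (1.07), and IL32 without siDDX17 3 (1.01). IL18, the most abundant cytokine of that list, had 75.6 to 90.0 FPKM in siCtrl and 101.0 to 105.5 in siDDX17 and an adjusted p of 0.0524.

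Of 17 receptor genes for these proteins and their relatives, 10 were tested, and 3 fell (30%) and 4 rose (40%) at any size. CXCR1 and CXCR2 had at most 1 read in any library, and CCR2 and CCR6 were not listed. IL1R1, the signalling receptor of IL1A, was called higher: it counted 472, 367 and 477 reads in siCtrl and 1346, 1240 and 1535 in siDDX17, a 2.75-fold increase with a log2 fold change of 1.46 ± 0.0814 (SE) and an adjusted p of 1.80e-08. IL1R2, its decoy, also rose, by 0.34 on the log2 scale. IL6ST, the chain shared by LIF and IL6, fell from 100.7 ± 8.11 to 51.8 ± 1.43 CPM (SD, n = 3), a log2 fold change of -0.96 with an adjusted p of 9.45e-08, and it was called without siCtrl 3 (-1.0). IL6R fell by 0.53 and OSMR by 0.23, whereas LIFR rose by 0.55 and IL11RA by 0.37. IL11RA missed the p limit with RLE scaling (adjusted p 0.0515), and OSMR missed it when only library size was used (adjusted p 0.179).

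The NF-kB factors and their inhibitors were all tested, and 8 of 12 fell (66.7%) and 2 rose (16.7%) at any size, beside 24.3% and 24.5% of all tested genes, with a median log2 fold change of -0.48 and with 2 called lower. NFKB2, which encodes the precursor of an NF-kB subunit, fell with a log2 fold change of -1.11 ± 0.0559 (SE; adjusted p 7.81e-09), from 5539, 4343 and 5997 reads to 2754, 2737 and 2851. NFKBIE, an inhibitor that holds NF-kB in the cytoplasm, fell with -1.52 ± 0.0786 (SE; adjusted p 9.41e-09), from 913, 719 and 1023 reads to 345, 360 and 346. Both are also known targets of NF-kB. NFKB2 lost its call in 3 of 17 alternatives, library size only (-0.99) and limma on log2 FPKM with 1 (-0.94) or 0.1 added (-0.98). NFKBIE lost its call in 0 of 17. Smaller decreases were found for RELB (-0.80), NFKBIA (-0.74), TNFAIP3 (-0.72), RELA (-0.48), NFKB1 (-0.48) and BCL3 (-0.15), and NFKBIB (0.64) and NFKBIZ (0.66) rose. These values did not rest on siCtrl 1, since 8 fell, 2 rose and 2 were called lower without it. When only library size was used, which moved the median of all genes to 0.13, 7 fell, 3 rose and 1 was called lower, and no gene that had passed turned its direction.

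**Figure D4:**
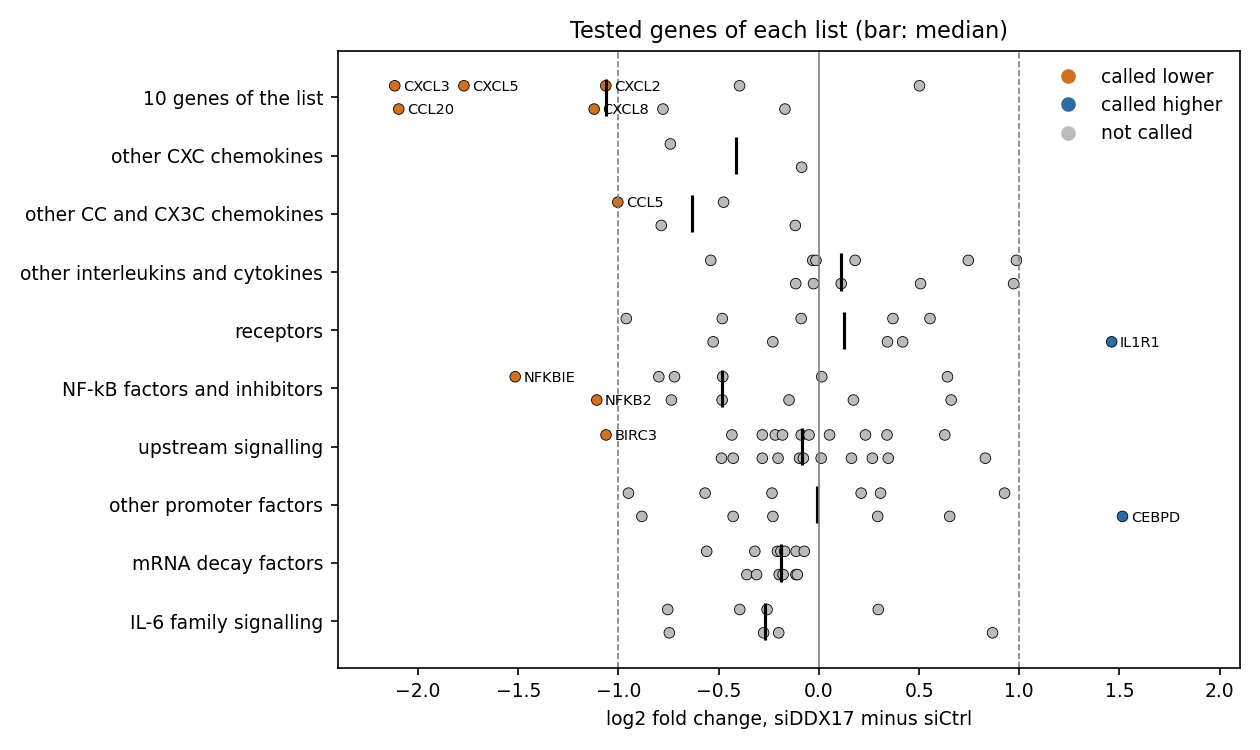
Log2 fold change, siDDX17 minus siCtrl, of each tested gene of the 10 genes under study and of 9 lists of related genes, with the median of each list as a bar. Points are orange where called lower, blue where called higher and grey otherwise, and only called genes are named; the NF-kB list lay mostly below 0 with a median of -0.48, and the mRNA decay factors lay close to 0.

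Other factors known to act at chemokine promoters moved in both directions: of 12 tested, 5 fell (41.7%) and 6 rose (50%) at any size. CEBPD, a C/EBP factor, was called higher at a log2 fold change of 1.52 ± 0.0798 (SE; adjusted p 1.08e-08), from 537, 482 and 725 reads to 1816, 1830 and 1991. CEBPB, the most abundant C/EBP gene of the list, fell by 0.57. Of the activator protein 1 genes, JUN (0.93), FOS (0.65), JUND (0.29) and FOSL2 (0.21) rose and JUNB (-0.95) and FOSL1 (-0.88) fell. Upstream of NF-kB, 8 of 22 tested signalling genes fell (36.4%) and 2 rose (9.09%) at any size, and BIRC3, an inhibitor of apoptosis protein and a known NF-kB target, was called lower at -1.06 ± 0.0938 (SE; adjusted p 9.72e-07). BIRC3 lost the call in 5 of 17 alternatives. These were without siCtrl 1 (-0.96), without siDDX17 2 (-0.99), library size only (-0.94) and limma on log2 FPKM with 1 (-0.79) or 0.1 added (-0.91). When only library size was used, 5 of these signalling genes fell and 6 rose.

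The factors that bind AU-rich or stem-loop elements of such mRNAs changed little. All 13 were tested and had log2 fold changes below 0, but only 6 (46.2%) passed the p limit, at any size, with a median log2 fold change of -0.19. ZFP36L2, which destabilises AU-rich mRNAs, fell by 0.56 and its relative ZFP36 by 0.36, and RC3H1, HNRNPD, KHSRP and ELAVL1, a factor that stabilises them, fell by 0.18 to 0.31. Only 2 of the 13 passed when library size alone was used. Among 8 genes of IL6 family signalling, 4 fell (50%) and 2 rose (25%) at any size, with TYK2 at -0.75, the feedback inhibitor SOCS3 at -0.39, JAK1 at 0.30 and the phosphatase gene PTPN11 at 0.87, and 2 fell and 2 rose with library size alone.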

How the data were processed

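A549 cells were sequenced in 6 libraries, 3 siCtrl and 3 siDDX17, grouped by the sample labels. Reads had been trimmed by the authors and aligned to GRCh38 with TopHat2, and those with 1 unique position were kept. Raw read counts per gene were deposited for 29476 genes. FPKM values, scaled by gene length and library size, were deposited by the authors for 29242 genes. The submitters' processing notes also name bcl2fastq and edgeR. The counting program, its annotation and its use of strand are not given in the sources used here. The time of harvest for sequencing is not stated separately from the 48 h of the RT-qPCR.

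Counts were analysed with edgeR 4.0.16 in R 4.3.3 (TMM scaling, filterByExpr, glmQLFit, glmQLFTest) over 15615 genes, with Benjamini-Hochberg adjustment, following the methods, which name edgeR without a block. A call required an adjusted p below 0.05 together with a log2 fold change over 1 in size. The SE was obtained from the F statistic, and 95% intervals are on the log2 fold change. Tested on simulated data for the comparison of siDDX17 with siCtrl (15615 genes, 200 changed), the fit called 197 of the changed genes and 4 others. Alternatives were another tool (DESeq2 1.42.0), other scalings (upper quartile, RLE, or library size alone), other filters (none, or 10 counts in each library), a block for the replicate number, and limma 3.58.1 on FPKM in log2 with 1 or 0.1 added, for genes at 0.1 FPKM or more in 3 libraries. Calls were also made with the methods' own limits (p of 0.01 and 1.5-fold) and without a fold limit, and each library was left out in turn. Every gene of the 10 was named, and of the other lists those called or most abundant, with further genes named after their values were seen. The 10 genes and the lists were chosen with earlier results of these data known.

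Locations, canonical transcripts and 3' UTRs are those of GENCODE 44 (98.9% of tested genes matched), and promoters, 250 bases before to 50 after a start, are from RefSeq (GRCh38.p14). Python 3.11.15, pandas 2.3.3, scipy 1.17.1, Biopython 1.88 and matplotlib 3.10.9 were used.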

Additional observations from a re-analysis of the deposited data

How the results depend on the processing

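The number of the 9 tested genes called lower was 5, and it was 3 with limma on log2(FPKM + 1), 3 with limma on log2(FPKM + 0.1) and 3 without siCtrl 1, for a range of 3 to 5 with 1 library left out. It was 4 with library size only, 6 with the limits of the methods and 7 with no fold limit. The number called higher was 0 in every setting. Of the pathway genes, 4 were called lower and 2 higher. The lower count was 1 with library size only, 1 and 2 with limma on log2(FPKM + 1) and log2(FPKM + 0.1), 12 with the limits of the methods and 37 with no fold limit. The higher count was 4 with upper quartile scaling, 5 with library size only, 4 with limma on log2(FPKM + 0.1), 10 with the limits of the methods and 19 with no fold limit. With 1 library left out, these counts were 2 to 5 and 2 to 3. No log2 fold change of the 9 genes turned its direction. CXCL2 also lost its call with library size only (-0.95), limma (-0.63 and -0.79) and the replicate block (-0.97), and CXCL8 with limma (-0.73 and -0.95). Why these calls were lost was not tested. An added pseudocount shrinks differences of low values, but its share was not separated from that of scaling by library size. The all-gene median was 0.005 in the main fit and 0.128 with library size only. With limma it was 0.123 with 0.1 added and 0.065 with 1 added. CXCL8 stood at -1.002 with library size only, where it was still called. Over all genes, 456 were called lower and 726 higher, against 89 and 160 with limma on log2(FPKM + 1), 253 and 712 with log2(FPKM + 0.1) and 323 and 1017 with library size only. The counts were 1254 and 1713 with the limits of the methods and 3798 and 3819 with no fold limit. At the limits of the methods the study itself reported fewer genes in both directions, and why was not tested. Same-numbered libraries of the groups did not deviate together (correlations 0.00698, 0.0407 and -0.0564), so the numbers were not taken as pairs. With the replicate block, 4 of the 9 genes were called lower, and 444 genes were called lower and 724 higher in all. Depth limits IL6 and IL1A, which had at most 13 reads in a library.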
